A study of Rattus norvegicus with 9 samples.

Results

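Vgf and Ngfr were 2 of the genes most strongly separated by sodium valproate (VPA) in RN46A cells, an immortalised line from the embryonic rat raphe with serotonergic features. They were chosen by name from the authors' deposited tables of VPA against control, in which Vgf ranked 5 and Ngfr ranked 8 by p-value among 1212 genes, and both were found by their Ensembl identifiers in the count table of 32662 genes. Both had enough counts to be tested, as had 12719 genes in all. The difference between VPA and control libraries is therefore what selected them, and it is given here as a description with no test.

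The 9 libraries of polyadenylated, unstranded RNA came in 3 groups of 3. All cells were kept at 33 °C, moved to 39 °C in low-serum medium on collagen and fibronectin for 72 h of differentiation, and cultured for another 72 h: with 0.5 mM VPA, with 0.5 mM lithium, or as controls for which no drug is named. Both drugs are given as mood stabilisers: VPA is an inhibitor of histone deacetylases, and the targets of lithium include inositol monophosphatase and glycogen synthase kinase 3. The cells are 1 line. Nothing in the labels says that replicates were grown as separate cultures, and the p-values then measure only the spread between these libraries, which may be technical.

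Neurotrophins such as brain-derived neurotrophic factor (BDNF) signal through Trk receptor kinases and through p75, the product of Ngfr. Trk receptors act through the Ras-ERK, Akt and phospholipase C pathways, and p75, a member of the TNF receptor superfamily, sets ligand affinity with Trk receptors and can signal to survival or death with partners such as the sortilins and Lingo1. Vgf encodes a granin-like secretory protein that is sorted to dense-core vesicles and cut into neuropeptides, and it was first known as a neurotrophin-induced transcript of rat PC12 cells. A cAMP response element (CRE), the site bound by CREB family factors, lies in its rat promoter and takes part in its induction by neurotrophins and cAMP. In the nervous system p75 is abundant in developing neurons, neural crest cells and Schwann cells, and it is also used as a marker of neural crest stem cells.

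The promoter of Vgf is shown because it holds this element. The RefSeq promoter table (assembly GRCr8) gives the minus strand of chr12:25276971-25277270, from 250 bases before the tabled start site at 25277020 to 50 bases after it, and capitals mark the CRE.
Vgf promoter: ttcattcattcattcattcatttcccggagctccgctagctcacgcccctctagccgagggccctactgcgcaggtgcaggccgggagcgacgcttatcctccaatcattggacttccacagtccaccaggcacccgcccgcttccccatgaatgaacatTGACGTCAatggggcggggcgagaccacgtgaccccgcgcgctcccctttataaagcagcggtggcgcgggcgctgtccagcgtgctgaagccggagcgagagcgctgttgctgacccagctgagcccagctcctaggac
The window lies within the annotated span of Vgf, chr12:25274004-25281803, which no other annotated gene overlaps, and Ngfr lies at chr10:81012077-81030305 of the same assembly, likewise without an overlapping gene. The promoter of Ngfr is not shown here.

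The full element TGACGTCA, a palindrome, occurred 1 time in the Vgf window, beginning 90 bases before the start site. It occurred in 612 of 33469 tabled rat promoters of the same length, which is 1.83%. Its core TGACG, searched on both strands, matched 2 times, both within the full element, and 21.2% of promoters held it. The CCAAT box matched 2 times, 1 on each strand, 143 and 149 bases upstream, with 37.5% of promoters holding a match. The GC box GGGCGG matched at 79 and 116 bases upstream, against 33.1% of promoters, and the E-box CANNTG matched 3 times, against 72.1%. The EGR site GCGTGGGCG and the SOX core ACAAT had 0 matches in the window, and 0.544% and 33.7% of promoters held them. These matches describe letters in the window and not binding.

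Among the genes of the neurotrophin, secretory and marker lists described below and Vgf and Ngfr, 58 had a name in the authors' tables, 40 had 1 tabled promoter, and 3 of these 40 held the full element. The other two were Syn1, which encodes synapsin I of synaptic vesicles, and Mapk10, which encodes the neuronal kinase JNK3. The 30-base windows around the 3 elements are shown side by side because their flanks differ, with the element in capitals; the Vgf window is chr12:25277092-25277121 on the minus strand, and those of Syn1 and Mapk10 are chrX:3725544-3725573 and chr14:6802205-6802234 on the plus strand.
Vgf: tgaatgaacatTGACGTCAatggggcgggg
Syn1: caaaggcgggcTGACGTCActctccagccc
Mapk10: tctctgggcttTGACGTCAtgtgtgctcct
The element began 190 bases upstream of the start site in Syn1 and 78 bases upstream in Mapk10. Among named genes with 1 tabled promoter, it was held by 11 of 437 called higher with VPA than in controls at an adjusted p under 0.05 (2.52%), 3 of 241 called lower (1.25%) and 5 of 184 not called (2.72%). The 11 include Vgf itself, which was chosen on this comparison.

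Reads assigned to genes numbered between 9658054 and 12243806 in VPA libraries, 11207844 and 13030300 in lithium libraries, and 9580591 and 11555704 in control libraries. A level of 1 count corresponded to 0.077 to 0.109 CPM, which are gene counts scaled to library sizes adjusted by TMM. The libraries numbered 3 stood apart for Vgf. Levels were compared here as log2 CPM with a prior count of 2, which damps ratios at few counts. For Vgf, library 3 stood at 1.73 times the geometric mean of the other 2 in VPA, 1.61 times in lithium and 2.95 times in control. These excesses were above those of 97.3, 95.2 and 99.7% of tested genes. For Ngfr the same ratios were 1.29, 0.987 and 1.29. The log2 difference behind them was above that of 81.8, 45.7 and 77.2% of tested genes. Values of Vgf and Ngfr without the libraries numbered 3 are therefore given beside the main ones.

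Vgf was counted 496, 455 and 937 times in VPA libraries 1, 2 and 3, against 34, 36 and 65 times in lithium libraries and 20, 14 and 59 times in control libraries. These counts correspond to 38.7, 48.7 and 75.3 CPM with VPA, 2.93, 3.16 and 5.01 CPM with lithium, and 1.82, 1.52 and 5.24 CPM in controls. Every VPA library lay above every other library, the closest pair being VPA 1 and control 3, while lithium and control libraries overlapped because control 3 was higher than all 3 lithium libraries. The means were 54.2 ± 18.9 CPM with VPA, 3.70 ± 1.14 CPM with lithium and 2.86 ± 2.07 CPM in controls (SD, n = 3 each). The order of the means was thus VPA, lithium, control, and the last pair differed by less than the spread between control libraries.

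The fitted level of Vgf was 18.7-fold higher with VPA than in controls, a log2 difference of 4.22 ± 0.44 (SE), which was rank 15 among the 12719 tested genes. Against lithium it was 14.6-fold higher, a log2 difference of 3.86 ± 0.43. Within pairs of libraries of the same number, the ratio of VPA over control was 21.3, 32.1 and 14.4. Of the single libraries left out, control 3 moved the first value most: without it the log2 difference between VPA and control was 5.02 ± 0.40, and without all 3 libraries numbered 3 it was 4.70 ± 0.27, and 3.84 ± 0.25 between VPA and lithium. With the replicate number as a block the estimate was 4.31 ± 0.24.

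Ngfr was counted 332, 255 and 429 times in VPA libraries, against 51, 38 and 49 times in lithium libraries and 50, 33 and 59 times in control libraries. In CPM this was 25.9, 27.3 and 34.5 with VPA, 4.39, 3.33 and 3.78 with lithium, and 4.54, 3.58 and 5.24 in controls. The VPA libraries again lay apart from the other 6, and the lithium and control libraries overlapped. The means were 29.2 ± 4.59 CPM with VPA, 3.83 ± 0.53 CPM with lithium and 4.45 ± 0.83 CPM in controls (SD, n = 3 each), so the order of the means was VPA, control, lithium, and the last pair differed by less than the spread between control libraries.

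The fitted level of Ngfr was 6.53-fold higher with VPA than in controls, a log2 difference of 2.71 ± 0.23 (SE) and rank 98 among the tested genes. Against lithium it was 7.61-fold higher, a log2 difference of 2.93 ± 0.23. The ratio of VPA over control was 5.71, 7.62 and 6.57 in pairs of the same number. Leaving out 1 library at a time kept the log2 difference between VPA and control at 2.57 to 2.85, and it was 2.70 without the libraries numbered 3. Between VPA and lithium it was then 2.78 ± 0.26. Vgf and Ngfr also differed in how their libraries scattered: the within-group SD of log2 CPM was 0.64 for Vgf, above that of 94.6% of tested genes, and 0.23 for Ngfr, above that of 31.5%, with a median of 0.29 over all tested genes.

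**Figure D1:**
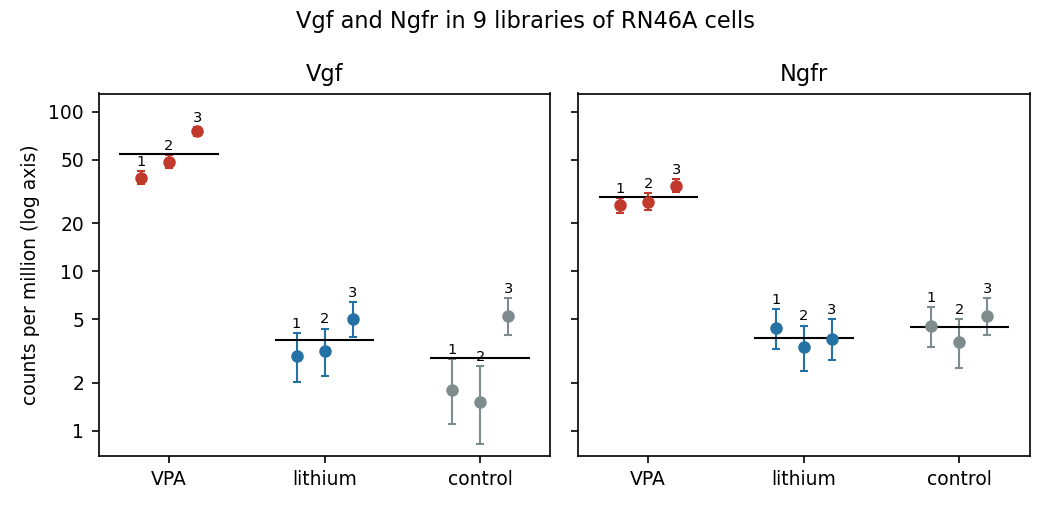
Levels of Vgf (left) and Ngfr (right) in each library, in CPM on a log axis, for VPA, lithium and control; numbers are the replicate numbers, bars are exact 95% intervals for counting error only, and horizontal lines are group means. The 3 VPA libraries lie between 38.7 and 75.3 CPM for Vgf and between 25.9 and 34.5 CPM for Ngfr, above the other 6 libraries, which lie between 1.52 and 5.24 CPM and between 3.33 and 5.24 CPM.

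The authors' deposited tables give the same direction by other routes. Because Vgf and Ngfr were chosen by name from such tables, this is no separate support. In the authors' deposited DESeq2 table the log2 fold change of VPA over control was 3.30 ± 0.30 for Vgf and 2.40 ± 0.24 for Ngfr (SE). Both are smaller than the values fitted here from the counts, and the cause was not tested. In the authors' deposited table from Salmon and sleuth, which works on transcripts and natural logs, the effect was 3.08 ± 0.43 for the Vgf transcript ENSRNOT00000041808, or 21.7-fold, and 1.87 ± 0.20 for the Ngfr transcript ENSRNOT00000007268, or 6.48-fold. The authors' deposited Cufflinks table lists Ngfr at 8.68 FPKM with VPA and 1.37 FPKM in controls, 1 value per group, at chr10:83389836-83408066 of a build that is not given in the sources used here. No entry named Vgf was found in it. These tables come from the same RNA, so they are not separate experiments.

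The comparison of lithium with control asks whether the other mood stabiliser moved either gene at the same concentration. It was not used in choosing them, though it shares the control libraries with the comparison that was. Vgf was 1.28-fold higher in lithium than in control libraries (95% interval 0.599 to 2.74), a log2 difference of 0.36 ± 0.45 (edgeR quasi-likelihood test, two-sided, unadjusted p = 0.442, Benjamini-Hochberg adjusted p = 1). Ngfr stood at 0.858 times the control level with lithium (interval 0.577 to 1.28), a log2 difference of -0.22 ± 0.23 (edgeR, unadjusted p = 0.365, adjusted p = 1). Neither difference passed the test, and each interval spans levels both below and above that of the controls.

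Over the whole table, lithium against control gave 0 calls of 12719 genes (0%) at an adjusted p under 0.05 with edgeR and 0 with DESeq2, while 116 genes had an unadjusted p under 0.05. That is a smaller share than the 0.05 of tested genes that a well-calibrated test gives where nothing differs. The lithium test may therefore be conservative, also for Vgf and Ngfr, and the cause was not tested. VPA against control gave 1106 calls (8.70%), of which 726 were higher (5.71% of tested genes) and 380 lower (2.99%). VPA against lithium gave 714 higher (5.61%) and 295 lower (2.32%). The lithium estimate of Vgf depended on single libraries: the log2 difference was 1.14 ± 0.40 without control 3, 0.11 ± 0.49 without control 1, 0.05 ± 0.45 without control 2 and 0.07 ± 0.49 without lithium 3, and the adjusted p was 0.999 to 1 under the alternatives tried. Without all libraries numbered 3 it was 0.86 ± 0.28 for Vgf and -0.08 ± 0.27 for Ngfr (adjusted p = 1 for both). The numbers of lithium libraries were not treated as pairs with those of the other groups, except in the replicate block, so no ratios by number are given for lithium.

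**Figure D2:**
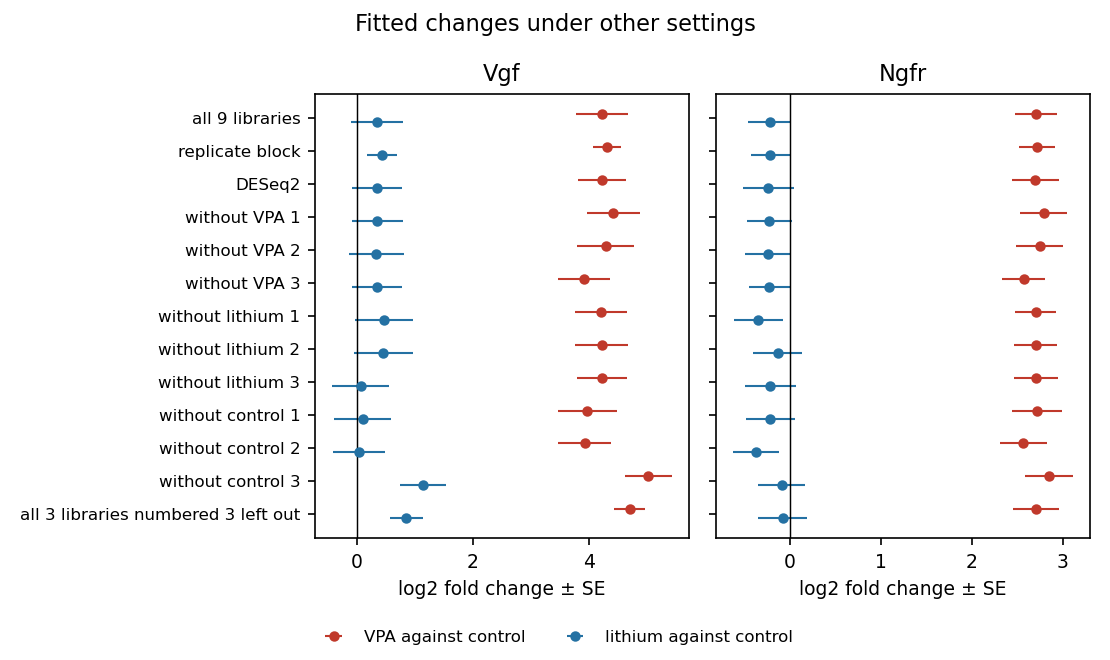
Log2 fold changes (± SE, horizontal axis) of Vgf (left) and Ngfr (right) for VPA against control and lithium against control, with all 9 libraries, with the replicate number as a block, with DESeq2, and with libraries left out. The VPA values of Vgf run from 3.91 without VPA 3 to 5.02 without control 3 and its lithium values reach 1.14 without control 3, while the VPA values of Ngfr stay between 2.57 and 2.85.

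The other genes of the neurotrophin system can be described only where the authors' tables pair an identifier with a name. These tables list genes by their p-values on the same libraries, and 1384 identifiers have a name. Of the 1299 named genes that were tested, 50% were called higher and 26.7% lower with VPA than in controls, and the median log2 difference was 0.90, against -0.01 over all tested genes. A list's counts have to be read against these shares, and the naming makes them no independent evidence of direction. The lists held 310 distinct symbols, Vgf and Ngfr among them. Besides Vgf and Ngfr, 56 were named and 53 tested. Of the 53, 29 were called higher and 13 lower with VPA than in controls (edgeR, adjusted p under 0.05). The like shares are those of the named tested genes, 50% and 26.7%, because only named genes could enter. Over all tested genes the shares were 5.71% and 2.99%. Without the libraries numbered 3, 25 of the list genes were called higher and 6 lower. With lithium 0 of the 53 were called. Some genes passed the filter on low counts only with their VPA libraries, among them Lingo1, Dusp2, Ache, Adcyap1, Igf2, Sox10, Htr5b and Cnn1. The group where they were high let them be tested, so their p-values are no independent support. The remaining symbols were not analysed here.

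Among neurotrophin receptors and co-receptors besides Ngfr, 2 genes are described here, and both were called higher with VPA, as were 50% of named tested genes. Lingo1, a transmembrane partner of p75 in the Nogo receptor complex, was counted 84, 46 and 140 times with VPA, 7, 7 and 7 times with lithium, and 11, 9 and 5 times in controls. Its log2 difference was 3.23 ± 0.41 (edgeR adjusted p = 0.00106), and only with its VPA libraries did it pass the filter on low counts. Sorcs2, a sortilin-family receptor that binds p75 and proneurotrophins, was counted 64, 67 and 105 times with VPA, 12, 13 and 30 times with lithium, and 11, 8 and 22 times in controls. It was higher by 2.40 ± 0.41 on the log2 scale (edgeR adjusted p = 0.0043). For both genes the VPA libraries did not overlap the others, and the lithium and control libraries overlapped. Nearly all tested list genes likewise had VPA libraries apart from the control libraries, as given below. Neither call was lost in the 18 alternatives; without the libraries numbered 3 the log2 difference was 2.53 for Lingo1.

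Transcripts of proteins that carry the signal inside the cell included some that were called higher and some called lower. Of the p75 adaptors and cleavage enzymes, 2 other genes were tested. Irak1, a kinase of Toll-like and p75 signalling, fell by 0.67 ± 0.14 on the log2 scale (edgeR adjusted p = 0.0139), to 90.8 ± 4.80 CPM with VPA, against 150 ± 8.48 CPM with lithium and 144 ± 9.88 CPM in controls. Without VPA 1 its adjusted p was 0.06. Ngfrap1, which encodes the p75-interacting protein NADE, had a log2 difference of 0.65 ± 0.19 that did not pass (edgeR adjusted p = 0.0533) and passed with the replicate block (adjusted p = 0.025). Mapk10, shown above for its CRE, was counted 11, 2 and 8 times with VPA, 1, 0 and 0 times with lithium and 0 times in every control library. That was too few to be tested, and no fold is given.

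Of the Trk cascade 5 genes were tested, and 1 was higher, 2 lower and 2 did not pass. All named tested genes had shares of 50% higher and 26.7% lower. Shc2, a neuronal Shc adaptor that couples Trk receptors to Ras, averaged 29.1 ± 2.29 CPM with VPA, 15.3 ± 1.90 CPM with lithium and 14.9 ± 1.81 CPM in controls, a log2 rise of 0.96 ± 0.18 over control (edgeR adjusted p = 0.00722). Akt1 and Akt2, kinases of the survival branch, fell by 0.70 ± 0.17 and 0.65 ± 0.15 (edgeR adjusted p = 0.0238 and 0.0242). Either call was lost when single libraries were left out: for Akt1 with VPA 1, VPA 2, control 2 or control 3 left out (adjusted p of 0.0532 to 0.107) and for Akt2 with any of the VPA libraries, control 1 or control 3 left out (adjusted p of 0.0514 to 0.0932). Shc1, the widely expressed Shc adaptor, and Sh2b2, a Trk-binding adaptor, differed by -0.49 and 0.92 (edgeR adjusted p = 0.0643 and 0.0831), and both passed with the replicate block (adjusted p = 0.0391 and 0.01).

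Feedback inhibitors and immediate early genes, which respond to ERK signalling within a short time, were covered by 3 tested genes. Dusp2, a nuclear phosphatase that acts on ERK, rose by 2.35 ± 0.45 with VPA from few counts (42, 24 and 26 with VPA, 6, 9 and 8 with lithium, 2, 7 and 7 in controls; edgeR adjusted p = 0.00764). Only its VPA libraries let it pass the filter on low counts. Spry1, a Sprouty inhibitor of receptor kinase signalling, differed by -1.21 ± 0.40 (edgeR adjusted p = 0.0873; 0.0117 with the replicate block). Ier5, an immediate early gene, fell by 0.82 ± 0.20 (edgeR adjusted p = 0.0281). Its call was lost with VPA 1, VPA 3, control 2 or control 3 left out (adjusted p of 0.053 to 0.0908). Fos, Egr1 and Arc, the classical immediate early genes, were not analysed here.

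Genes known to be induced late in the neurotrophin response of PC12 cells or of sensory and sympathetic neurons formed the largest named group of the pathway. Of 9 tested besides Vgf, 7 were higher, 0 were lower and 2 did not pass, with a median log2 difference of 1.51, against shares of 50% higher and 26.7% lower over all named genes. L1cam, a neuronal adhesion molecule, averaged 7.03 ± 0.40 CPM with VPA, 0.926 ± 0.505 CPM with lithium and 0.901 ± 0.187 CPM in controls (log2 difference 2.96 ± 0.36, edgeR adjusted p = 0.00103). Nefm, the medium neurofilament subunit, stood at 6.24, 5.89 and 4.74 CPM with VPA, 1.47, 2.02 and 1.00 CPM with lithium and 0.635, 0.868 and 1.16 CPM in controls (2.65 ± 0.35, edgeR adjusted p = 0.00135). Mapt, which encodes the microtubule-binding protein tau, averaged 11.2 ± 1.79, 1.25 ± 0.71 and 1.90 ± 0.33 CPM in the VPA, lithium and control libraries (2.56 ± 0.36, edgeR adjusted p = 0.00171). In these 3 genes every VPA library was above every lithium and control library. Separation of VPA from control libraries, in either direction, held for all tested list genes but Rab3a and Penk. Its share over all tested genes was not counted. The names came from tables that list genes by p-value on the same libraries, so this separation is no separate support.

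Ache, acetylcholinesterase, rose by 2.25 ± 0.40 and Mmp10, the metalloproteinase stromelysin-2, by 1.45 ± 0.29 (edgeR adjusted p = 0.00572 and 0.00946). Nts, the precursor of neurotensin, rose by 1.27 ± 0.29 and Nefh, the heavy neurofilament subunit, by 1.24 ± 0.32 (edgeR adjusted p = 0.0207 and 0.0353). The call of Nts was lost without any 1 of the VPA libraries, control 1 or control 3 (adjusted p of 0.0515 to 0.0702), and that of Nefh without VPA 3, control 1 or control 2 (adjusted p of 0.0997 to 0.136). Uchl1, a neuronal deubiquitinase, and Syn1 differed by 0.89 ± 0.25 and 1.51 ± 0.52 without passing (edgeR adjusted p = 0.0524 and 0.1), and both passed with the replicate block (adjusted p = 0.00681 and 0.00228). Syn1 had the same high libraries as Vgf, with 15.8, 16.4 and 32.5 CPM with VPA, 3.45, 4.83 and 11.5 CPM with lithium and 5.72, 3.47 and 13.3 CPM in controls. Ret, the receptor kinase for GDNF family ligands, was counted 10, 11 and 5 times with VPA, 1, 0 and 1 times with lithium and 1, 1 and 1 times in controls, and was not tested.

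**Figure D3:**
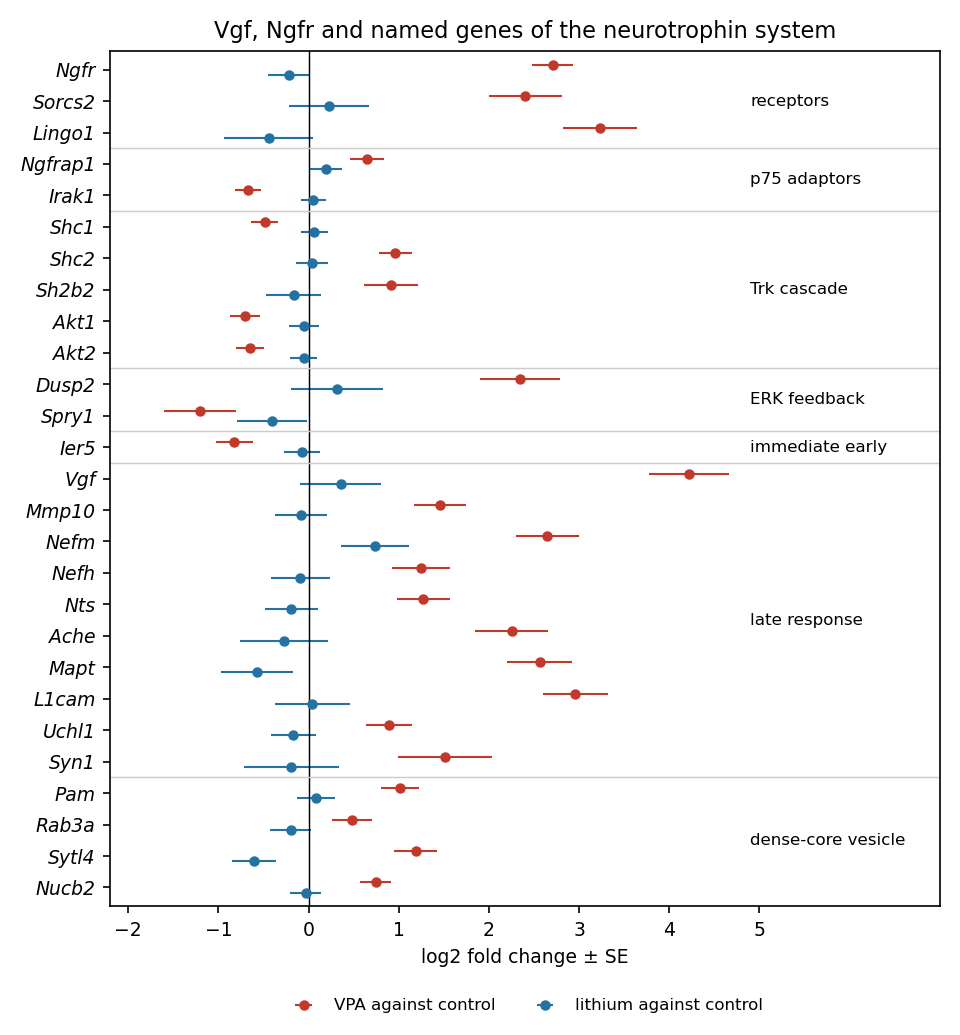
Log2 fold changes (± SE, horizontal axis) for VPA against control and lithium against control of Vgf, Ngfr and named, tested genes of the neurotrophin system and of dense-core vesicles, in groups by role. For VPA the receptors lie between 2.40 and 3.23 and the late response genes between 0.89 and 4.22, the signalling genes lie on both sides of 0, and for lithium 0 genes were called.

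Vgf is a cargo of dense-core vesicles, and 3 of 4 other tested genes of this compartment were higher with VPA, with 0 lower. The shares over all named tested genes were 50% higher and 26.7% lower. Pam, the enzyme that amidates peptide hormones, averaged 134 ± 33.3 CPM with VPA, 70.3 ± 8.70 CPM with lithium and 66.6 ± 12.9 CPM in controls (log2 difference 1.01 ± 0.21, edgeR adjusted p = 0.0125). Sytl4, which encodes granuphilin of secretory granules, rose by 1.19 ± 0.24 and Nucb2, the precursor of nesfatin-1, by 0.74 ± 0.17 (edgeR adjusted p = 0.00983 and 0.0208). The call of Nucb2 was lost without VPA 2 or control 2 (adjusted p = 0.0895 and 0.0647), and that of Sytl4 without the libraries numbered 3 (adjusted p = 0.0681). Rab3a, a GTPase of vesicle release, differed by 0.48 ± 0.22 (edgeR adjusted p = 0.237).

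Other secreted peptide genes also lay higher with VPA, in 3 of 4 tested, of which Nts is given above. Over all named tested genes 50% were called higher and 26.7% lower. Adcyap1, the precursor of the neuropeptide PACAP, was counted 25, 17 and 22 times with VPA, 2, 2 and 2 times with lithium and 1, 2 and 3 times in controls (log2 difference 3.20 ± 0.44, edgeR adjusted p = 0.00158). It was tested only because its VPA libraries passed the filter on low counts. Igf2, a growth factor, was counted 141, 104 and 157 times with VPA, 0, 2 and 2 times with lithium and 2, 1 and 1 times in controls. The ratio of its summed counts per library total was 94.4 (exact 95% interval 36.6 to 348, counting error only). Penk, the enkephalin precursor, differed by 0.24 ± 0.20 (edgeR adjusted p = 0.544).

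Relatives of Ngfr in the TNF receptor superfamily did not share 1 direction. Cd40, a receptor of antigen-presenting and other cells, rose by 1.26 ± 0.30 with VPA (edgeR adjusted p = 0.0257). Tnfrsf11b, which encodes the decoy receptor osteoprotegerin, was lower at 8.04, 5.46 and 4.42 CPM with VPA, against 12.4, 11.1 and 7.63 CPM with lithium and 30.0, 22.0 and 12.3 CPM in controls (log2 difference -1.84 ± 0.35, edgeR adjusted p = 0.00722). Ltbr, the lymphotoxin beta receptor, fell by 0.65 ± 0.18 (edgeR adjusted p = 0.0409). The call of Cd40 was lost with VPA 1, VPA 3, control 1 or control 3 left out (adjusted p of 0.0653 to 0.0914), and that of Ltbr without any 1 of the VPA libraries, lithium 2, lithium 3, control 2 or control 3 (adjusted p of 0.0501 to 0.161).

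Ngfr marks neural crest and Schwann cells, and 5 genes of that list were named, Ngfr among them. The summed level of the 5 was 63.4 to 71.9 CPM with VPA, 15.2 to 17.4 CPM with lithium and 12.2 to 17.6 CPM in controls. Ngfr, which was chosen on the difference between VPA and control, gave 25.9 to 34.5 CPM of the sums with VPA. It gave 3.33 to 4.39 CPM of those with lithium and 3.58 to 5.24 CPM of those in controls. Sox10, the transcription factor that defines this lineage, was counted 21, 22 and 47 times with VPA, 1, 1 and 6 times with lithium and 0, 1 and 2 times in controls. Over the group this was 90 counts with VPA and 3 in controls, a ratio per library total of 28.2 (exact 95% interval 9.34 to 139, counting error only), and edgeR gave an adjusted p of 0.00327. Sox10 also passed the filter on low counts only through its VPA libraries. Its fitted log2 difference was 4.62 and became 5.43 without control 3. Erbb3, the neuregulin receptor of Schwann cells and their precursors, averaged 26.6 ± 1.35 CPM with VPA, 7.36 ± 1.65 CPM with lithium and 5.44 ± 1.65 CPM in controls (log2 difference 2.28 ± 0.25, edgeR adjusted p = 0.000564). S100b, a glial calcium-binding protein, fell by 1.28 ± 0.30 (edgeR adjusted p = 0.021), a call that was lost without any 1 of the VPA libraries, control 1 or control 3 (adjusted p of 0.0506 to 0.0738). In these bulk libraries a change in the number of cells of a type and a change in RNA per cell cannot be told apart.

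Markers of other cell types moved in the same libraries, and their part in the values of Vgf and Ngfr was not tested. Their calls are to be read against 50% higher and 26.7% lower over all named tested genes. Of 10 tested pan-neuronal markers 8 were higher and 0 lower, and the 10 summed to 351 to 500 CPM with VPA, 141 to 185 CPM with lithium and 148 to 212 CPM in controls. Of 8 fibroblast markers 1 was higher and 5 lower, and the list summed to 2601 to 4201 CPM with VPA, 5065 to 6590 CPM with lithium and 6054 to 7924 CPM in controls, most of it from Vim and S100a4. The higher gene was Cnn1, with a log2 difference of 2.32 ± 0.36 (edgeR adjusted p = 0.00307). Pdgfra and Vim did not pass, at 0.63 ± 0.26 and -0.73 ± 0.24 (edgeR adjusted p = 0.178 and 0.0791). Dcn, a matrix proteoglycan of fibroblasts, was counted 4, 4 and 0 times with VPA, 77, 21 and 9 times with lithium and 236, 114 and 16 times in controls. Lum, another matrix proteoglycan, was at 0 counts in every VPA library. Its counts were 15, 3 and 0 with lithium and 54, 13 and 6 in controls. The call of Dcn was lost without VPA 1, VPA 3 or control 2 (adjusted p of 0.0573 to 0.0597), and that of Lum without any 1 of the VPA libraries or control 1 (adjusted p of 0.0793 to 0.106). Both were also lost with no filter on low counts (adjusted p = 0.114 for Dcn and 0.212 for Lum). Of 5 serotonergic-list genes 4 were higher and 1 lower, and the list summed to 35.1 to 41.0 CPM with VPA, 27.1 to 27.8 CPM with lithium and 24.1 to 33.2 CPM in controls. Of these calls, that of the lower gene, Hmx2, was lost without VPA 1, VPA 2 or control 3 (adjusted p of 0.0584 to 0.0806), that of Slc29a4 without any 1 of the VPA libraries, control 1 or control 2 (0.0641 to 0.0995), and that of Htr5b without the libraries numbered 3 (0.0745). Maob, monoamine oxidase B, was at 6.72 ± 1.53 CPM with VPA, 0.867 ± 0.294 CPM with lithium and 1.10 ± 0.31 CPM in controls (SD, n = 3 each); Tph2 and Slc6a4 were not analysed here, so the labelled cell type could not be checked by them.

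Of the listed regulators of Vgf and Ngfr, 2 were named: Sox10, given above, and Hdac7, a class IIa histone deacetylase. Hdac7 differed by -0.77 between VPA and control (edgeR adjusted p = 0.0715; 0.021 with the replicate block).

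The named genes whose profile over the 9 libraries was nearest to each gene were found by the root-mean-square (RMS) difference of log2 CPM, each gene centred on its own mean, among 1227 named genes that averaged at least 1 CPM. For Vgf, 4 of the 5 nearest were Chrna5, a nicotinic receptor subunit, with an RMS difference of 0.43, Nxph4, a neurexophilin, with 0.47, Adgrb2, an adhesion G protein-coupled receptor, with 0.50, and Lzts1, a leucine zipper protein, with 0.52. Adgrb2 averaged 35.4 ± 4.19 CPM with VPA, 3.76 ± 0.87 CPM with lithium and 2.97 ± 1.37 CPM in controls. The other 3 named here were below 1 CPM in both the lithium and the control libraries on average, so few counts set their profiles there.

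For Ngfr the nearest were Efna3, an ephrin ligand, with an RMS difference of 0.20, Wnt6, a Wnt ligand, with 0.21, Syt1, the calcium sensor of synaptic vesicle release, with 0.22, Rnf128, a ubiquitin ligase, with 0.22, and Mmp13, a collagenase, with 0.25. Wnt6 averaged 18.9 ± 3.82 CPM with VPA, 2.11 ± 0.61 CPM with lithium and 2.68 ± 0.77 CPM in controls, and Mmp13 averaged 567 ± 105 CPM with VPA, 70.1 ± 14.3 CPM with lithium and 90.8 ± 17.2 CPM in controls (SD, n = 3 each). Ngfr itself ranked 28 by nearness to Vgf, with an RMS difference of 0.79, and Vgf ranked 353 by nearness to Ngfr. The measure follows the size of the VPA difference and the scatter between libraries alike, and because names were given to genes chosen by p-value it covers only those genes.

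**Figure D4:**
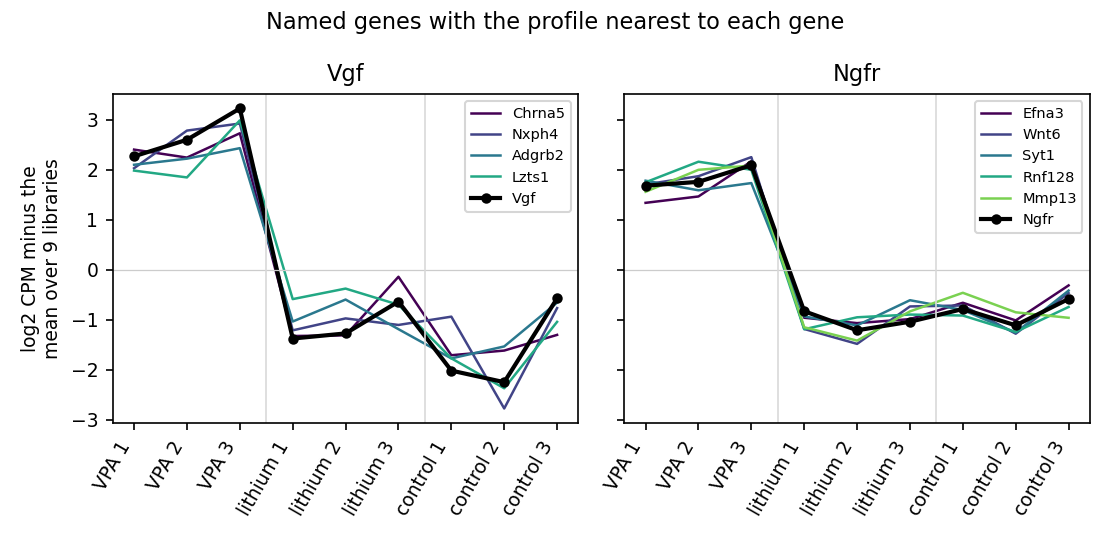
Profiles of Vgf (left) and Ngfr (right, both in black) and of named genes nearest to each, 4 for Vgf and 5 for Ngfr, as log2 CPM minus the gene's mean over 9 libraries (vertical axis), by library; lines join libraries only to make each profile readable. All lie high in the 3 VPA libraries, the genes near Ngfr run close together with RMS differences of 0.20 to 0.25, and those near Vgf spread more, at 0.43 to 0.52.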

How the data were processed

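RNA of RN46A cells was sequenced in 3 VPA, 3 lithium and 3 control libraries, grouped and numbered by the submitters' titles; the control libraries' treatment is not described further. The authors deposited raw counts per Ensembl gene, whole numbers from STAR and HTSeq by the table's title. Per the submitters' processing notes, the tools were DESeq2, sleuth, STAR 2.5.1, Cufflinks 2.2.1, Salmon 0.6.1, kallisto 0.42.4 and CASAVA 1.8. No build or annotation is named in the sources used here. Reads were not strand-specific, so antisense reads cannot be told apart. Per the file headers, the authors' DESeq2 table gives the mean normalized count (a signal), the log2 fold change, a test score and p-values for each gene. The authors' Salmon and sleuth table holds effects with p-values, read here as natural log values because sleuth writes them so. The authors' Cufflinks table holds 1 FPKM value per group, per the file headers. A table titled for kallisto repeats the DESeq2 table in 1212 lines and was not used.

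The deposited counts went into edgeR 4.0.16 (R 4.3.3) with TMM scaling and filterByExpr at a minimum count of 10. Group means of the 9 libraries were fitted by robust quasi-likelihood with 6 residual degrees of freedom. Two-sided p-values were adjusted over 12719 genes by Benjamini-Hochberg, and calls were made under 0.05. Standard errors were taken from the log2 fold change and F, and intervals from the t quantile. The biological coefficient of variation was 0.22. Tables were handled with pandas 2.3.3 and exact intervals with SciPy 1.17.1; they cover counting error only. Profile likeness used log2 CPM with a prior count of 2.

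Members and gene lists were chosen with earlier results of these data known. Named genes were Vgf, Ngfr, every list gene that the authors' tables name, and the 5 nearest profiles for each; some genes that this rule takes are left out of the text. The table of rat genes supplied held 0 Ensembl identifiers, so all 1384 names came from the authors' tables. Promoters came from RefSeq, GRCr8.

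The numbers in the titles were checked for pairing over 10288 genes that averaged at least 5 CPM. Deviations from the group means correlated at 0.6, 0.533 and 0.525 between same-numbered VPA and control libraries. Ratios of VPA over control are therefore given by number, although no label gives a pairing. The main fit took no pairing into account for any group, so its standard errors, p-values and calls ignore it. Between lithium and control libraries the correlations were -0.418, -0.0815 and 0.801, and no ratios by number are given for lithium. Lithium 1 correlated best with control 2 (0.681) and lithium 2 with control 1 (0.647). The replicate block over all 9 libraries still took the lithium libraries by their title numbers. Alternatives were DESeq2 1.42.0, median-ratio scaling, 2 other filters, a non-robust fit, the title number as a replicate block, a fit of the 2 groups compared, and leaving out each library; a block within 2 groups and leaving out the libraries numbered 3 were added after the data were seen.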

Additional observations from a re-analysis of the deposited data

How the results depend on the processing

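Under the alternatives, 165 values of the counts of calls and of Vgf and Ngfr kept their direction and moved by less than 1.5 times for counts, by less than the spread between replicates for untested differences, or not across the threshold for tested ones; 15 moved further and 0 reversed. With the replicate block the calls were 1741 for VPA against control and 1609 for VPA against lithium, against 1106 and 1009 without it, and with the block in the 2 groups alone VPA against control gave 2408. The block over all 9 libraries took the lithium libraries by title number, which the correlations bore out only for those numbered 3. Ngfrap1, Sh2b2, Shc1, Spry1, Syn1, Uchl1, Hdac7 and Vim passed with the block, and it changed no other call of a list gene. Leaving out 1 library gave 638 to 1026 calls for VPA against control and 544 to 1197 for VPA against lithium. Leaving out the 3 libraries numbered 3 gave 529 and 525. A fit with fewer libraries has fewer residual degrees of freedom. Over the 53 list genes 42 were called, with 30 to 43 when 1 library was left out and 51 with DESeq2.

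The log2 difference of Vgf between VPA and control was 3.91 to 5.02 when 1 library was left out, the highest without control 3, and that between VPA and lithium was 3.55 to 4.15. For Ngfr they were 2.57 to 2.85 and 2.79 to 3.05. Among single list genes, 842 values kept their side of the threshold, 74 lost a call and 36 gained one. The depth limits Vgf and Ngfr in lithium and control libraries, where they rest on 14 to 65 counts each.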
